A study of Mus musculus with 4 samples.

Results

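The 8 genes Fth1, Ftl1, Trf, Tfrc, Slc11a2, Slc40a1, Cp and Hmox1 store, carry, take up and export iron or break down haem, and they were found by symbol among the 31053 genes of the count matrices. They were followed across the cell types of the whole mouse brain and between brains dissociated with and without inhibitors of RNA and protein synthesis. The animals were 4 C57BL/6J mice, all male and at postnatal day 90, and each gave 1 library by droplet-based single-cell RNA sequencing, and all brains were digested with enzymes. In 2 mice no inhibitors were present. In the other 2, the transcription inhibitors actinomycin D and triptolide were present from perfusion to digestion, and the translation inhibitor anisomycin was added at dissection and digestion. The labels name no transgene or deletion in either group.

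Counts are of UMIs, the random tags by which copies of 1 captured RNA molecule are counted once. After filtering, 9811 cells were kept, with 2081 to 2796 cells and 4490504 to 6053804 UMIs per mouse. The cells fell into 30 clusters and 15 classes, which were named by marker genes and are therefore called "microglia-like" and so on. None of the 8 genes was a marker or was used in the clustering. A total of 67 barcode sequences occurred in more than 1 library. The labels give each mouse as a sample of its own. No libraries were merged as repeat deposits of 1 library, since those of the same group differed by more than counting noise, with a chi-square per degree of freedom of 5.93 without and 4.69 with inhibitors. Mice of 1 replicate number shared some features: olfactory ensheathing-like cells were found only in both replicate 1 mice (29 and 32 cells), and the choroid plexus markers in microglia-like cells were higher in both replicate 2 mice (4137 and 3830.1 CPM) than in both replicate 1 mice (2772 and 2027 CPM).

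Iron enters most cells bound to transferrin (Trf), which is taken up by the transferrin receptor (Tfrc), and it leaves the endosome through the divalent metal transporter (Slc11a2). In the cytosol it is stored in ferritin, a shell built of heavy (Fth1) and light (Ftl1) chains, and it leaves the cell through ferroportin (Slc40a1), helped by ferroxidases such as ceruloplasmin (Cp). Haem oxygenase (Hmox1) frees iron from haem. In the brain, iron crosses the endothelium of the blood-brain barrier, and oligodendrocytes are known as iron-rich cells. Several of these mRNAs carry an iron-responsive element, a hairpin bound by iron regulatory proteins when iron is scarce. In a 5′ UTR the bound hairpin blocks translation, and in the 3′ UTR of the receptor mRNA it protects the transcript from decay. The level of a ferritin mRNA is therefore not a measure of its protein.

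These hairpins are printed to show which of the 8 mRNAs hold the letters of such an element, a match being a description of the sequence only. The annotated UTRs were searched on the transcript strand for CNNNNNCAGTGN followed by 5 bases that pair with the 5 before the loop, with G-T pairs allowed. Of the 8 genes, 4 held the letters, against 160 of 21888 protein-coding genes (0.731%). In each line the capitals mark the loop, and the build is mm10.
Fth1, 5′ UTR, chr19:9982733-9982759, plus strand: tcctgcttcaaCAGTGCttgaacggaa
Ftl1, 5′ UTR, chr7:45459780-45459806, minus strand: tcttgcttcaaCAGTGTttgaacggaa
Slc40a1, 5′ UTR, chr1:45925466-45925492, minus strand: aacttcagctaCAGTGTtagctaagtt
Tfrc, 3′ UTR, chr16:32631220-32631246, plus strand: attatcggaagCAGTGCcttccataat
Tfrc, 3′ UTR, chr16:32631599-32631625, plus strand: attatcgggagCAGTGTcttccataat
Tfrc, 3′ UTR, chr16:32631664-32631690, plus strand: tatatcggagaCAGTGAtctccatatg
Tfrc, 3′ UTR, chr16:32631711-32631737, plus strand: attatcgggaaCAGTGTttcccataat
The ferritin and ferroportin matches lay in the 5′ UTR, as in 31 of all genes searched (0.142%). The receptor held 4 matches in its 3′ UTR, where 129 genes (0.589%) had at least 1. In Trf, Slc11a2, Cp and Hmox1 these letters were not in the annotated UTRs. The search asked for 5 unbroken pairs, so a hairpin with a bulge or mismatch there was missed. A gene without a match can therefore still hold an element, and a gene with matches can hold more.

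On mm10, Fth1 (ENSMUSG00000024661) spans chr19:9980598-9985098, Ftl1 chr7:45457944-45459884, Trf chr9:103204001-103230444 and Tfrc chr16:32608920-32632794. Slc11a2 spans chr15:100387898-100425072, Slc40a1 chr1:45908068-45926523, Cp chr3:19957054-20009145 and Hmox1 chr8:75093621-75100589. All are protein-coding. Since reads come from the 3′ end, the last 500 bases of each transcript were searched for stretches of 98 bases, the length of a read, that also occur in another gene. For Ftl1, 54.8% of stretches were shared with Ftl1-ps1 and other copies. This is a share of sequence and not of UMIs, and its effect on the UMIs of Ftl1 cannot be told from the counts. Ftl1-ps1 itself held 1287 UMIs in all kept cells, against 51047 for Ftl1. For Trf, 29.5% were shared with Gm20425, an overlapping gene model with 0 UMIs in these libraries, and for Fth1 2.48% were shared with Gm6977. The other 5 genes shared none.

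Levels are given as CPM, the UMIs of a gene summed over the cells of 1 class in 1 mouse and scaled by the total UMIs of those cells, as mean ± SD over the 4 mice. They are compared between classes and not between genes. No test was made between classes, because classes were drawn from the same cells, and classes whose ranges over mice overlapped are not held apart. Oligodendrocyte-like cells held the most Fth1 and Trf, macrophage/monocyte-like cells the most Ftl1 and Hmox1, endothelial-like cells the most Tfrc and Slc40a1, mural-like cells the most Cp and neuron-like cells the most Slc11a2. For Hmox1 and Slc11a2 the range of the highest class overlapped with that of the next, and for the other 6 genes it did not.

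**Figure D1:**
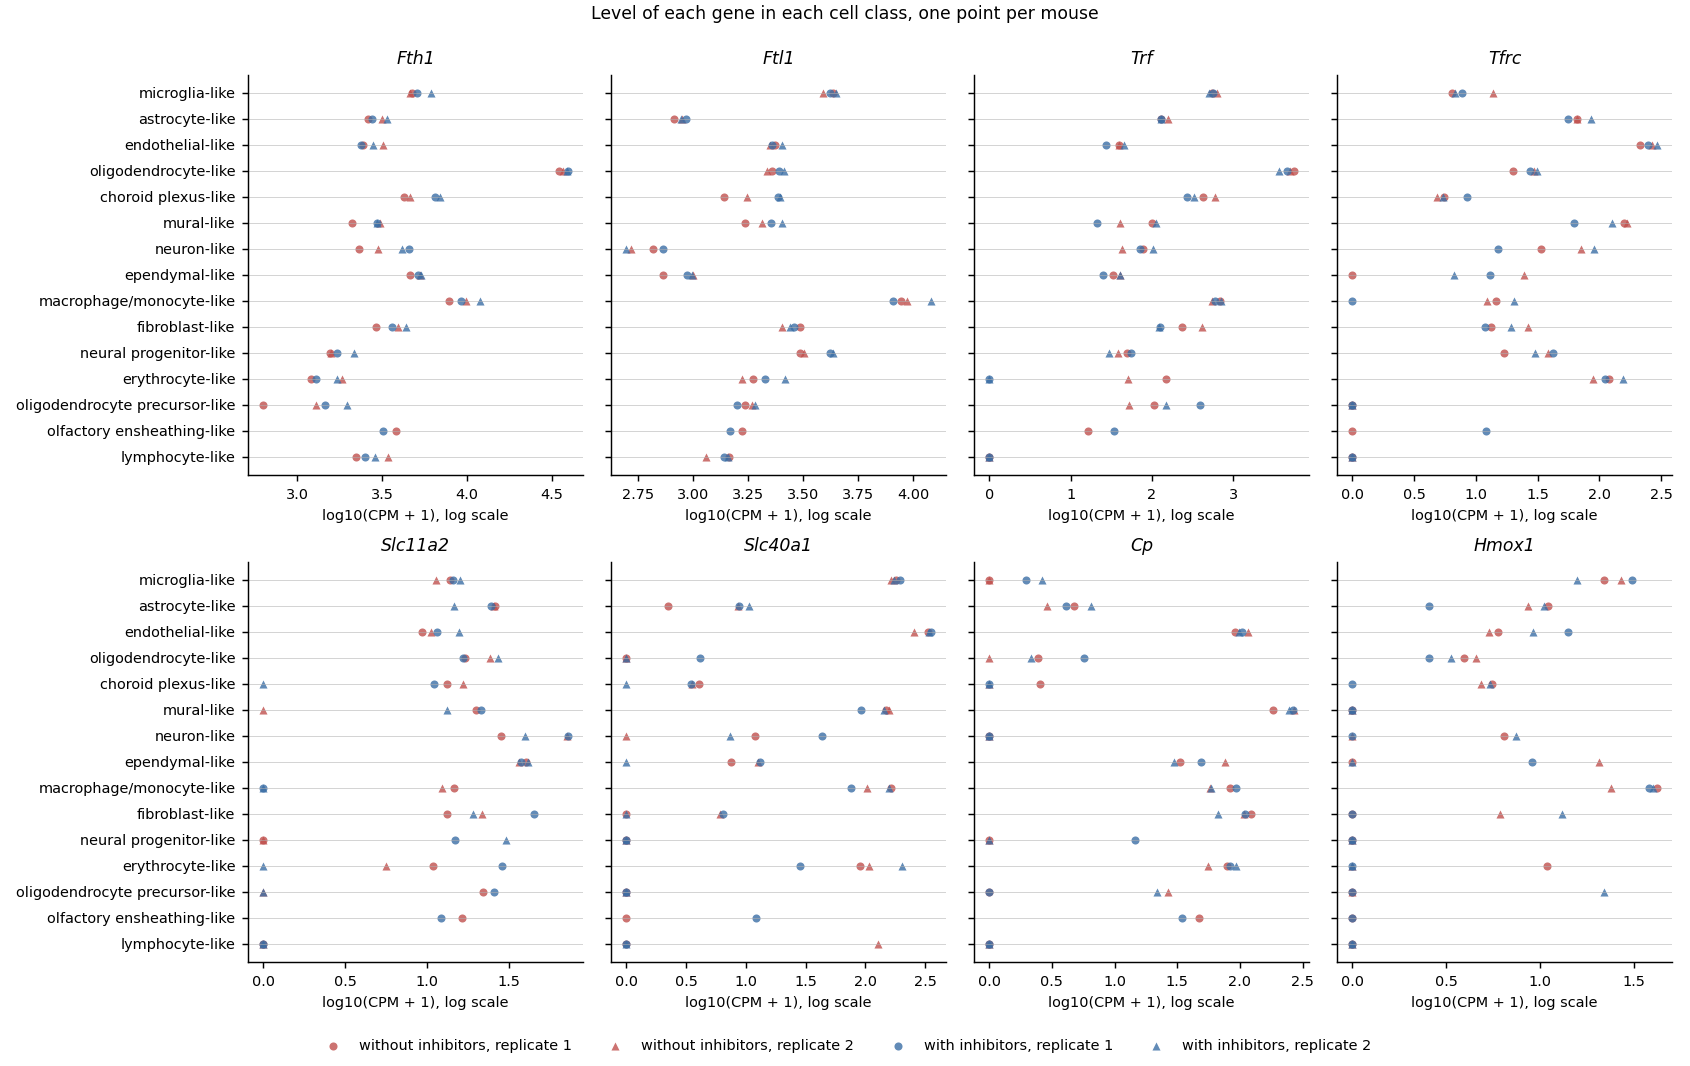
Levels of the 8 genes in every class as log10(CPM + 1), with 1 point per mouse, the colour giving the inhibitor group and the symbol the replicate. The x axes differ between panels. Fth1 in oligodendrocyte-like cells ran from 34909 to 39500.3 CPM, above every value of every other class.

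Fth1, the ferritin chain that oxidises iron on entry, had 34909 and 36932 CPM in oligodendrocyte-like cells without inhibitors and 39500.3 and 38942 CPM with them. Its mean there was 37571 ± 2089.6 CPM (SD, n = 4), 3.86-fold above the next class. That class, the macrophage/monocyte-like cells, had 9740.2 ± 1741 CPM (SD, n = 4) and lay apart from the classes under it. Choroid plexus-like (5571 ± 1321 CPM), microglia-like (5156 ± 713 CPM) and ependymal-like cells (5103 ± 327 CPM) followed, and their ranges overlapped. Astrocyte-like cells had 2968 ± 352 CPM and endothelial-like cells 2700.2 ± 394 CPM of Fth1. Oligodendrocyte precursor-like cells had the least, 1329.9 ± 549.6 CPM (SD, n = 4, 233 UMIs) and overlapped with erythrocyte-like and neural progenitor-like cells. This class was led by Gpr17 and Neu4, known from precursors that are starting to differentiate, and its oligodendrocyte markers summed to 13402 to 29075 CPM per mouse, against 2953 to 5836 CPM for the precursor markers.

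Ftl1, the chain on which the iron core forms, had a different order. Macrophage/monocyte-like cells held 8821 and 9398 CPM without and 8106 and 12005 CPM with inhibitors, a mean of 9583 ± 1699 CPM (SD, n = 4), 2.27-fold above the next class. Microglia-like cells followed with 4213 ± 241 CPM and neural progenitor-like cells with 3683 ± 650.2 CPM, and these ranges overlapped. Oligodendrocyte-like cells, first for the heavy chain, came only after these and the fibroblast-like cells for the light chain, with 2366 ± 185 CPM, which did not differ beyond the spread from endothelial-like cells (2345 ± 128 CPM). The lowest levels were in ependymal-like (913 ± 128 CPM), astrocyte-like (877 ± 45.3 CPM) and neuron-like cells (599 ± 110.3 CPM). The ranges of ependymal-like and astrocyte-like cells overlapped, and neuron-like cells lay apart from astrocyte-like cells. Ftl1-ps1, which shares stretches with Ftl1, was also highest in macrophage/monocyte-like cells, with 253 ± 105 CPM (SD, n = 4, 65 UMIs).

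Trf, the iron carrier of plasma and brain fluid, was led by oligodendrocyte-like cells more clearly than any other member was led by its highest class. Its level there was 5553 and 4968 CPM without and 4554 and 3698 CPM with inhibitors, a mean of 4693 ± 780.0 CPM (SD, n = 4), 7.45-fold above the next class. Macrophage/monocyte-like (630.0 ± 71.8 CPM), microglia-like (563 ± 57.8 CPM) and choroid plexus-like cells (405 ± 144 CPM) followed with overlapping neighbours. Endothelial-like cells had 37.0 ± 7.81 CPM. The 8 oligodendrocyte markers, by which oligodendrocyte RNA in other classes can be followed, summed to 931 to 1792 CPM per mouse in microglia-like cells and to 46958 to 51093 CPM in oligodendrocyte-like cells. The part of this RNA in the Trf of other classes was not tested.

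Tfrc, the receptor that takes up transferrin, had its highest level in the cells that line brain vessels. Endothelial-like cells held 213 and 264 CPM without and 245 and 290.0 CPM with inhibitors, a mean of 253 ± 32.5 CPM (SD, n = 4), 1.99-fold above mural-like cells (127 ± 47.1 CPM). Erythrocyte-like cells had 117 ± 27.6 CPM, overlapping with mural-like cells. Astrocyte-like (67.3 ± 12.6 CPM) and neuron-like cells (51.7 ± 34.5 CPM, 26 UMIs) came next. Microglia-like cells had 7.64 ± 3.38 CPM and choroid plexus-like cells 5.09 ± 1.65 CPM. No UMI was found in oligodendrocyte precursor-like cells, where 3 UMIs over the 4 mice would be 17.1 CPM, a limit that covers counting error only.

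Slc40a1, the exporter ferroportin, was found in the same vessel cells and in microglia. In endothelial-like cells it had 331 and 252 CPM without and 352 and 342 CPM with inhibitors, a mean of 319 ± 45.5 CPM (SD, n = 4). Microglia-like cells had 178 ± 14.0 CPM, apart from both the class above and the class below. Mural-like (134 ± 29.5 CPM), macrophage/monocyte-like (124 ± 42.6 CPM) and erythrocyte-like cells (105 ± 71.4 CPM) overlapped. Oligodendrocyte-like cells, with the most ferritin heavy chain, held 2 UMIs of Slc40a1 in all 4 mice, or 0.779 ± 1.56 CPM. Choroid plexus-like cells held 5 UMIs.

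Cp, the copper enzyme that oxidises exported iron, was highest in mural-like cells, with 184 and 268 CPM without and 263 and 244 CPM with inhibitors. The mean of 240.0 ± 38.6 CPM (SD, n = 4) was 2.36-fold above fibroblast-like cells (102 ± 24.2 CPM), which overlapped with endothelial-like cells (101 ± 9.88 CPM). When levels were averaged over cells instead of over UMIs, fibroblast-like cells led. Microglia-like cells held 3 UMIs of Cp and neuron-like cells 0, where 3 UMIs would be 6.23 CPM.

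Slc11a2, which moves iron out of the endosome, was low across classes. Neuron-like cells had 51.7 ± 22.3 CPM (SD, n = 4, 21 UMIs) and ependymal-like cells 37.6 ± 2.22 CPM (31 UMIs), and these overlapped. Astrocyte-like (21.6 ± 5.37 CPM) and oligodendrocyte-like cells (20.1 ± 5.12 CPM) followed, and microglia-like cells had 12.8 ± 1.87 CPM. Endothelial-like cells had 10.7 ± 2.80 CPM. The ranges of neuron-like and ependymal-like cells lay above those of microglia-like and endothelial-like cells.

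Hmox1, the enzyme that opens the haem ring, held 194 UMIs in all kept cells. Macrophage/monocyte-like cells had 34.9 ± 8.23 CPM from 9 UMIs, a value that became 52.3 CPM as a mean over cells. Microglia-like cells had 22.9 ± 6.50 CPM (SD, n = 4, 105 UMIs), 2.99-fold above endothelial-like cells (7.64 ± 4.03 CPM) and apart from them. No UMI was found in mural-like cells, where 3 UMIs over the 4 mice would be 3.21 CPM.

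The share of a gene's UMIs that came from a class depends on its cell number and RNA content as well as its level. Oligodendrocyte-like cells were 9.10% of cells and gave 13.5% of all UMIs, but 59.4% ± 6.66 of Fth1 and 73.3% ± 7.002 of Trf UMIs (SD, n = 4). Microglia-like cells gave 22.6% of all UMIs, 38.3% ± 2.60 of Ftl1, 37.2% ± 5.63 of Slc40a1 and 53.8% ± 10.3 of Hmox1. Endothelial-like cells gave 18.0% of all UMIs, 62.3% ± 8.73 of Tfrc and 51.6% ± 6.78 of Slc40a1. Of Cp, 47.7% ± 6.48 came from endothelial-like and 28.8% ± 0.752 from mural-like cells.

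**Figure D2:**
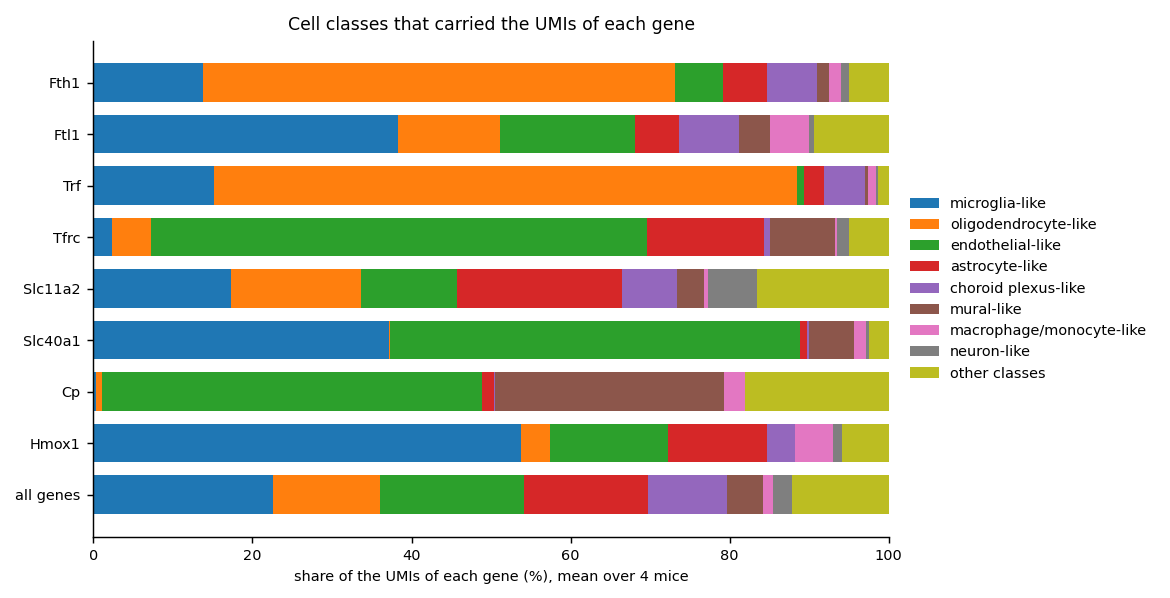
Share of the UMIs of each gene, in percent, that came from each class, as stacked bars of the mean over 4 mice. Oligodendrocyte-like cells gave 59.4% of Fth1 and 73.3% of Trf, whereas Slc11a2 was spread over many classes, with 20.7% in astrocyte-like cells as its largest share.

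The share of cells with a UMI was compared after each cell had been thinned to 1000 UMIs, leaving out shallower cells. In oligodendrocyte-like cells, 99.9% ± 0.254 held Fth1 and 93.9% ± 1.68 held Trf (SD, n = 4), against 99.9% and 99.3% before thinning. In microglia-like cells 41.4% ± 4.12 held Trf, 16.0% ± 1.49 Slc40a1 and 2.12% ± 0.512 Hmox1. In endothelial-like cells 24.1% ± 4.61 held Slc40a1 and 18.3% ± 3.003 held Tfrc, against 41.0% and 33.2% before thinning. In mural-like cells 26.3% ± 4.47 held Cp.

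Low shares at the same depth are given for some genes and classes, which were not chosen by a fixed rule. Free RNA in the droplets was not estimated, so background and low expression cannot be told apart in them. Trf was found in 3.77% ± 1.93 of endothelial-like cells, Tfrc in 0.791% ± 0.201 of microglia-like cells, Cp in 0.0330% ± 0.0661 of microglia-like cells, and Hmox1 in 0.353% ± 0.260 of oligodendrocyte-like cells. Slc40a1 was found in 0 of 876 thinned oligodendrocyte-like cells. Median UMIs per cell before thinning were 2777 in oligodendrocyte-like, 1381 in microglia-like, 1770.0 in endothelial-like and 1908 in mural-like cells. Of the neuron-like cells, 166 of 290 were too shallow to be thinned, and their 5.21% ± 2.26 for Slc11a2 rests on 6 cells with a UMI.

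**Figure D3:**
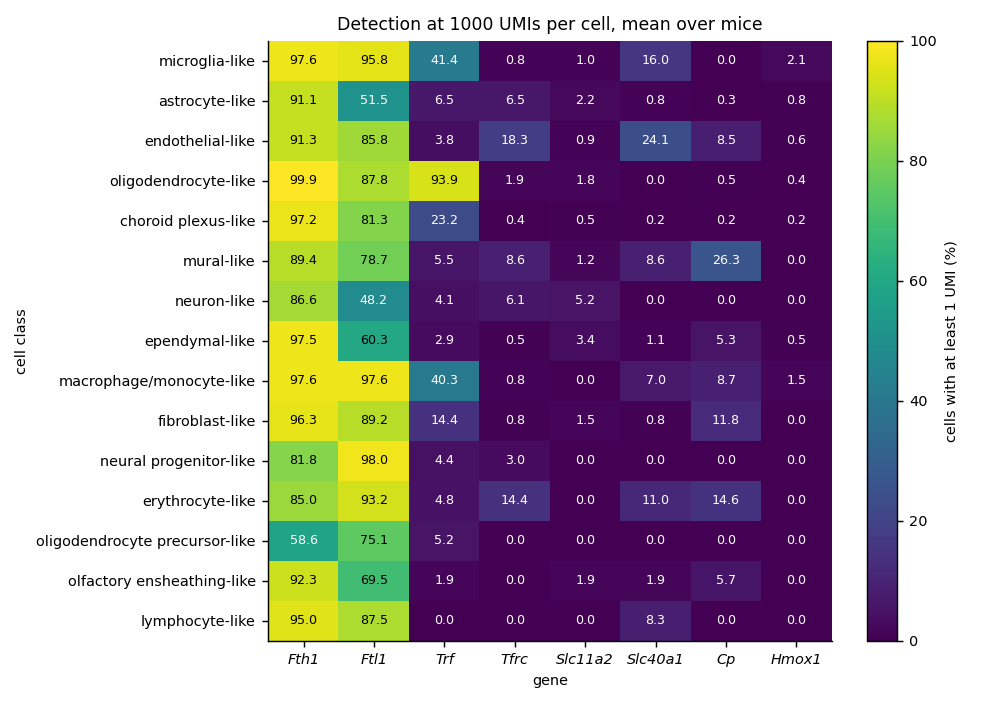
Share of cells, in percent, with at least 1 UMI of each gene in each class after thinning to 1000 UMIs per cell, as a mean over mice. The Trf share of 93.9% in oligodendrocyte-like cells contrasts with 41.4% in microglia-like and 3.77% in endothelial-like cells.

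Within classes, single clusters carried much of some genes. These values are descriptions with no test, because clusters were drawn from the same cells. The macrophage/monocyte-like class held cluster 23, 63 cells led by Pf4, Mrc1 and Cd163, genes known from macrophages at the borders of the brain, and cluster 19, 77 cells led by H2-Aa, Ccr2 and Plac8. In cluster 23, Slc40a1 had 296 ± 34.4 CPM, Trf 1202 ± 274 CPM and Cp 229 ± 112 CPM (SD, n = 4). In cluster 19, Slc40a1 had 39.4 ± 37.0 CPM, Trf 342 ± 146 CPM and Cp 0 CPM. Both ferritin chains were also higher in cluster 23, with 11826 against 8697 CPM for Fth1 and 13876 against 7086 CPM for Ftl1. The 5 neutrophil markers summed to 13448 CPM in cluster 19 and to 0 in cluster 23, so the class mean mixes unlike cells. Over the class these markers summed to 8046 and 11059.5 CPM without and 0 and 15379.8 CPM with inhibitors, the same order of mice as Ftl1, and their part in its level was not tested. Hmox1 rested on few UMIs in both, at 86.3 and 9.62 CPM.

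Among astrocyte-like cells, Trf stood out in cluster 22, 70 cells led by Gdf10, a gene known from Bergmann glia of the cerebellum. These cells had 1347 and 1689.5 CPM without and 1914 and 1299.8 CPM with inhibitors, a mean of 1562 ± 292 CPM (SD, n = 4, 299 UMIs). The large astrocyte-like clusters 2 and 5 had 43.6 ± 9.54 and 41.6 ± 15.8 CPM of Trf. The oligodendrocyte markers summed to 524 CPM in cluster 22, below the 1055 and 769 CPM in clusters 2 and 5. Fth1 was 1877 ± 573 CPM in cluster 22 against 2874 ± 340 CPM in cluster 2, and Ftl1 was 2054 ± 113 against 588 ± 41.1 CPM.

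Fibroblast-like cells also divided. Cluster 26, 34 cells led by Dcn and Lum, held 2099 ± 1887 CPM of Trf and 791 ± 341 CPM of Cp (SD, n = 4), against 11.6 ± 6.97 and 16.4 ± 8.90 CPM in the 95 cells of cluster 18. The SD of Trf in cluster 26 was close to its mean.

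Some vessel clusters had high Cp where the receptor and exporter were low. Others did not, as the means of Cp, Tfrc and Slc40a1 were all higher in endothelial-like cluster 6 than in cluster 4. In endothelial-like cluster 15, whose leading genes Gkn3, Bmx and Sema3g are known from arteries, Tfrc had 55.7 ± 18.2 CPM, against 267 ± 21.2 and 281 ± 61.5 CPM in clusters 4 and 6. Slc40a1 was 150 ± 19.2 CPM in cluster 15 against 293 ± 34.8 and 362 ± 62.7 CPM. Cp went the other way, with 179 ± 30.7 CPM in cluster 15 against 66.2 ± 19.7 and 105 ± 5.16 CPM (SD, n = 4 each). In mural-like cells, cluster 14, led by the pericyte genes Kcnj8 and Vtn, had 386 ± 73.2 CPM of Cp but 5.41 CPM of Tfrc and 8.202 CPM of Slc40a1, each from 1 UMI. Cluster 25, led by the smooth muscle genes Tagln and Acta2, had 41.2 ± 61.4 CPM of Cp. Cluster 13 had 164 ± 59.99 CPM of Tfrc and 178 ± 34.3 CPM of Slc40a1, and its 8 endothelial markers summed to 14514 CPM, against 562 CPM in cluster 14. Nearly all Tfrc and Slc40a1 UMIs of the mural-like class were thus in the cluster that also carried endothelial markers. Endothelial markers likewise summed to 9479 CPM in the erythrocyte-like cells, and their part in the Tfrc and Slc40a1 there was not tested.

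Genes whose levels followed a member most closely were found by Pearson correlation of log2(CPM + 1) over the 15 class means, among 14758 genes. The points share libraries and the values are descriptions. Fth1 was closest to 1700063D05Rik (r = 0.88), Klk6 (0.86) and Adssl1 (0.84), and Trf to Msrb1 (0.89), Tmem141 (0.86) and Commd9 (0.85). Ftl1 was closest to Ly96 (r = 0.79), Ccl6 (0.78) and Naip5 (0.77). Slc40a1 was closest to Fmnl3 (r = 0.94), Hhex (0.91) and Trim30a (0.91), Tfrc to Slc30a1 (0.89), Rasal2 (0.89) and Palm (0.88), and Cp to Ifitm3 (0.89), Ehd2 (0.88) and Mill2 (0.88). Slc11a2 was closest to Lancl1 (r = 0.95), Kifap3 (0.94) and Lztr1 (0.94), and Hmox1 to Gm11423 (0.86), Man1c1 (0.83) and Paox (0.83). The values of Slc11a2 and Hmox1 rest on few UMIs. Slc11a2 had 21 UMIs in its highest class and 2 in macrophage/monocyte-like cells, and Hmox1 had 9 in its highest class and 0 in several. Between the members themselves, r was highest for Fth1 and Trf (0.64).

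The comparison of brains without and with inhibitors asked whether levels of the 8 genes differed between the groups. All brains were dissociated, so a change during dissociation and an effect of the inhibitors themselves cannot be told apart. Fold changes are values without over values with inhibitors, and a gene was called when edgeR's quasi-likelihood test gave a Benjamini-Hochberg adjusted p under 0.05 over all genes tested and an absolute log2 fold change over 0.58. Of 48 tests of members in 10 comparisons, 1 was called, Trf in choroid plexus-like cells, where it was higher without inhibitors. The share of all tested genes that was called ran from 0% in astrocyte-like and ependymal-like cells to 4.83% in choroid plexus-like cells. Fth1 and Ftl1 in the same cells had an adjusted p under 0.05 but missed the fold limit. The exact permutation test of 2 against 2 mice cannot give a p below 0.333 and was not used.

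**Figure D4:**
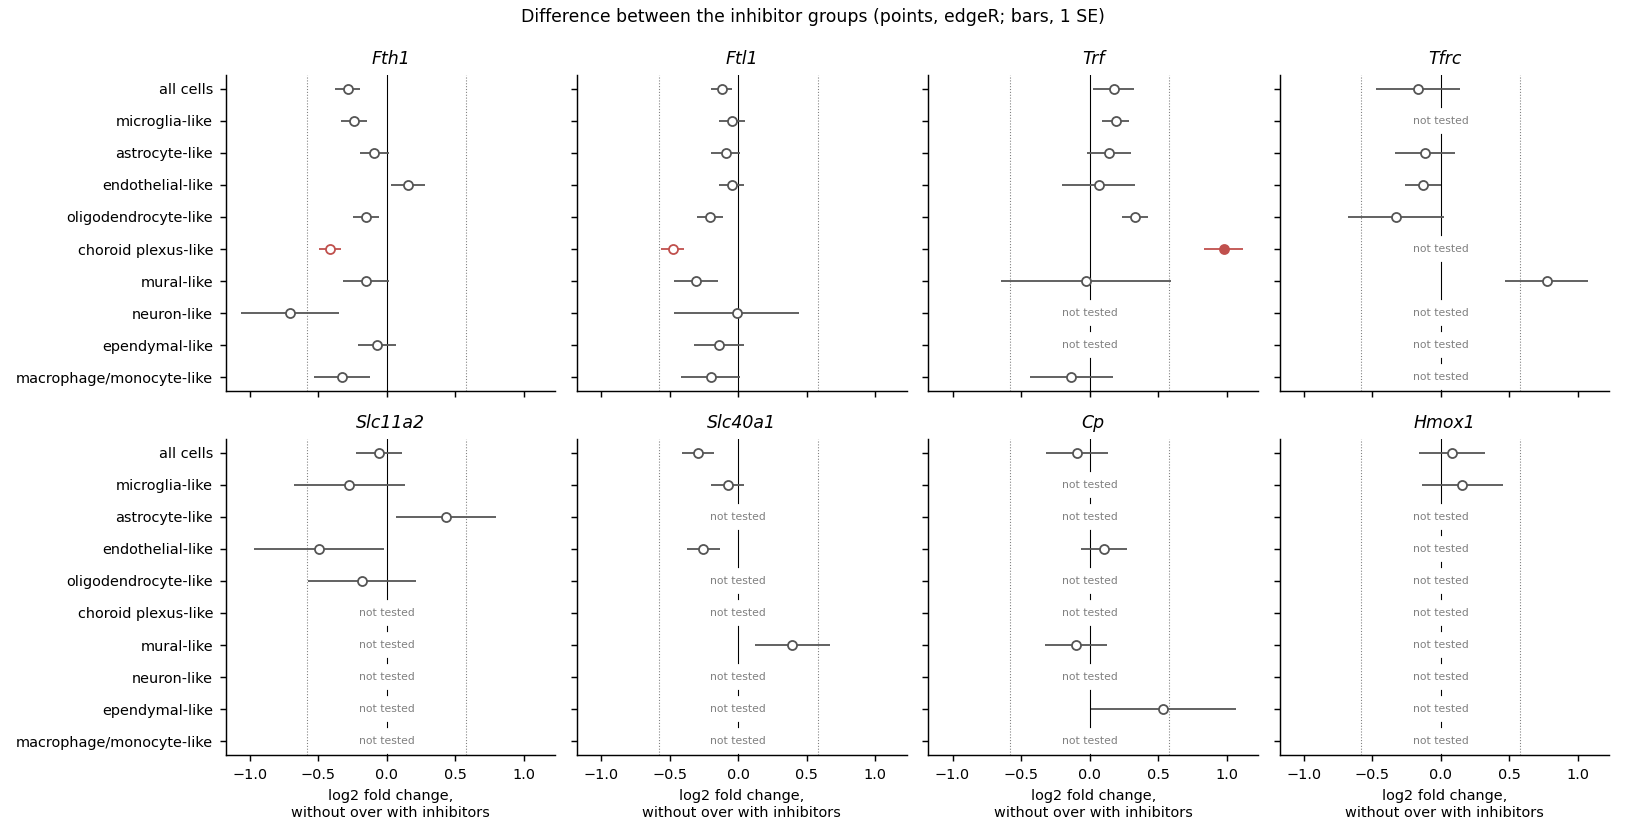
Log2 fold change without over with inhibitors for each gene and comparison, with bars of 1 SE. Filled points were called, red points had an adjusted p under 0.05, and dotted lines stand at plus and minus 0.58. The filled point is Trf in choroid plexus-like cells, at 0.98.

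In sums over all cells of a mouse, 0 of the 8 members were called by edgeR and 0 by DESeq2, with 0.0145% of 13755 genes called by edgeR. Their median log2 fold change was -0.11, against -0.01 over all genes. Unadjusted p was under 0.05 for Fth1 and Slc40a1. Fth1 had 7933 and 6929.9 CPM without and 9062 and 10008 CPM with inhibitors, so the groups did not overlap, and its log2 fold change was -0.29 (SE 0.089, adjusted p 0.727). The share of oligodendrocyte-like cells was 9.34% and 6.25% without and 9.61% and 11.2% with inhibitors and followed the same order of mice. In such sums, fewer cells of a type and less RNA per cell cannot be told apart. Within oligodendrocyte-like cells the log2 fold change of Fth1 was -0.15 (SE 0.097, adjusted p 0.649). For Slc40a1 it was -0.29 in all cells (SE 0.12, adjusted p 0.772), with 94.4 and 97.1 CPM without and 114 and 133 CPM with inhibitors.

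In microglia-like cells, where 16 of the 25 activation genes chosen on sorted microglia of other mice were called higher without inhibitors, 0 of 6 tested members were called, against 0.495% of all genes. The log2 fold changes ran from -0.27 (Slc11a2) to 0.19 (Trf). Fth1 had 4723 and 4633 CPM without and 5083 and 6185 CPM with inhibitors, a log2 change of -0.24 (SE 0.094, adjusted p 0.488). The oligodendrocyte markers in these cells summed to 1012 and 931 CPM without and 1189 and 1792 CPM with inhibitors, again in the order of mice of Fth1, and their part in it was not tested. Hmox1, a gene known to be induced by haem and oxidative stress, had 20.97 and 26.1 CPM without and 29.7 and 14.7 CPM with inhibitors, and its groups overlapped. Tfrc and Cp were too low to be tested there.

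In oligodendrocyte-like cells 0 of 5 tested members were called, against 0.277% of all genes. Trf was higher in both mice without inhibitors, with 5553 and 4968 against 4554 and 3698 CPM, and its log2 fold change of 0.33 (SE 0.095) had an adjusted p of 0.0951 by edgeR. Ftl1 had a log2 ratio between the groups of -0.21 (SE 0.094, adjusted p 0.447). In endothelial-like cells 0 of 7 tested members were called, against 0.0361% of all genes. Tfrc there had a log2 ratio between the groups of -0.13 (SE 0.13) and overlapped between groups, and Slc40a1 had -0.25 (SE 0.12, adjusted p 0.877).

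In astrocyte-like cells 0 of 5 tested members were called (0% of all genes), and in ependymal-like cells 0 of 3 (0%). In macrophage/monocyte-like cells it was 0 of 3 (0.62%), where Fth1 had a log2 ratio between the groups of -0.33 (SE 0.21) and Ftl1 of -0.20 (SE 0.22), the latter in the same order of mice as the neutrophil markers given above. In mural-like cells 0 of 6 were called (0.0678%), and Tfrc had the largest value, 0.77 (SE 0.30, adjusted p 0.757), from 156 and 165 CPM without and 60.8 and 126 CPM with inhibitors. Tfrc was too low to be tested in mural-like cells without cluster 13. In neuron-like cells 0 of 2 were called (0.0371%), and Fth1 had 2305 and 2991 CPM without and 4562 and 4125 CPM with inhibitors, a log2 change of -0.71 (SE 0.36, adjusted p 1.00). The oligodendrocyte markers in neuron-like cells summed to 1313 and 1601 CPM without and 3240.5 and 1758 CPM with inhibitors, in the same order of mice as Fth1, and their part in it was not tested. Over single classes other than choroid plexus, 6 of 37 member tests had an unadjusted p under 0.05 by edgeR, against 5.91% of 43882 tests over all genes. Tests of 1 gene in several classes share mice and are not independent.

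In choroid plexus-like cells, the epithelium that makes cerebrospinal fluid, 1 of the 3 members that could be tested was called, Trf, which was higher without inhibitors. Fth1 and Ftl1 were lower without inhibitors with an adjusted p under 0.05, but by less than the fold limit after TMM scaling. Of all 4634 genes tested in these cells, 4.83% were called, the largest share among the classes. Trf had 423 and 599 CPM without and 268 and 331 CPM with inhibitors, and the groups did not overlap. Its log2 fold change was 0.98 (SE 0.14, adjusted p 3.60e-05 by edgeR). Ftl1 had 1372 and 1742 CPM without and 2410.2 and 2484 CPM with inhibitors, a log2 change of -0.48 (SE 0.083, adjusted p 3.92e-04). Fth1 had 4273 and 4614 CPM without and 6489 and 6909.5 CPM with inhibitors, a log2 change of -0.41 (SE 0.080, adjusted p 0.00131). The log2 TMM factors of this class differed by -0.18 (mean without minus mean with inhibitors), which raised fold changes relative to library totals. The CPM given here are scaled to library totals, and by their group means Fth1 and Ftl1 differed by more than the fold limit.

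Several other measures moved with the groups in these cells. The 8 choroid plexus markers summed to 351357 and 268711 CPM without and 219370.0 and 207600.0 CPM with inhibitors. With these markers left out of the counts, Trf had 652 and 819.6 CPM without and 343 and 418 CPM with inhibitors, and its log2 fold change was 0.99 (adjusted p 8.90e-06 by edgeR). Fth1 then had 6588 and 6309 CPM without and 8312 and 8720 CPM with inhibitors (log2 fold change -0.41). Ftl1 had 2115 and 2382 CPM without and 3087 and 3135 CPM with inhibitors (-0.47). The oligodendrocyte markers summed to 513 and 345 CPM without and 619 and 1037 CPM with inhibitors, with both mice with inhibitors higher, as for Fth1 and Ftl1 and unlike Trf. Their part in the ferritin values was not tested. Median mitochondrial shares per cell were also higher with inhibitors, at 8.90% and 10.7% against 7.76% and 8.22% in cluster 9 and 3.62% and 4.59% against 2.66% and 3.05% in cluster 8, and the part of this in the results was not tested. The class was made of clusters 8 and 9, and cluster 8 held 48.0% and 52.8% of its cells without and 64.3% and 71.3% with inhibitors. Cluster 8 had more ferritin, with 7727 against 3834 CPM of Fth1 and 2761 against 1369 CPM of Ftl1, and less Trf, with 286 against 461 CPM (means of 4 mice).

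The change of Trf was found in cluster 9. Cluster 9, led by Prlr, Kl and Htr2c, had 521 and 735 CPM of Trf without and 222 and 365 CPM with inhibitors, a log2 change of 1.24 (SE 0.20, adjusted p 0.00223 by edgeR, 1.19% of 2948 genes called). Cluster 8 had 222 and 314 CPM without and 303 and 305 CPM with inhibitors, a log2 fold change of -0.10 (adjusted p 0.892, 0.585% of 2566 genes called). The difference between the clusters was itself called, 1.41 (SE 0.27, adjusted p 0.0208), 1 of 3 genes called among 3079 (0.0974%). Cells of cluster 9 were deeper without inhibitors, with median UMIs of 3679 and 3557 against 2156 and 2029, and the part of this in the result was not tested. For the ferritin chains the log2 fold changes in cluster 9 were -0.44 for Fth1 (adjusted p 0.0142) and -0.44 for Ftl1 (adjusted p 0.0442), and in cluster 8 they were -0.17 (adjusted p 0.485) and -0.28 (adjusted p 0.246). The differences between the clusters, -0.22 for Fth1 (SE 0.14, adjusted p 0.917) and -0.12 for Ftl1 (SE 0.15, adjusted p 0.973), were not called. These splits by cluster were added after the shares of both clusters had been seen.

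**Figure D5:**
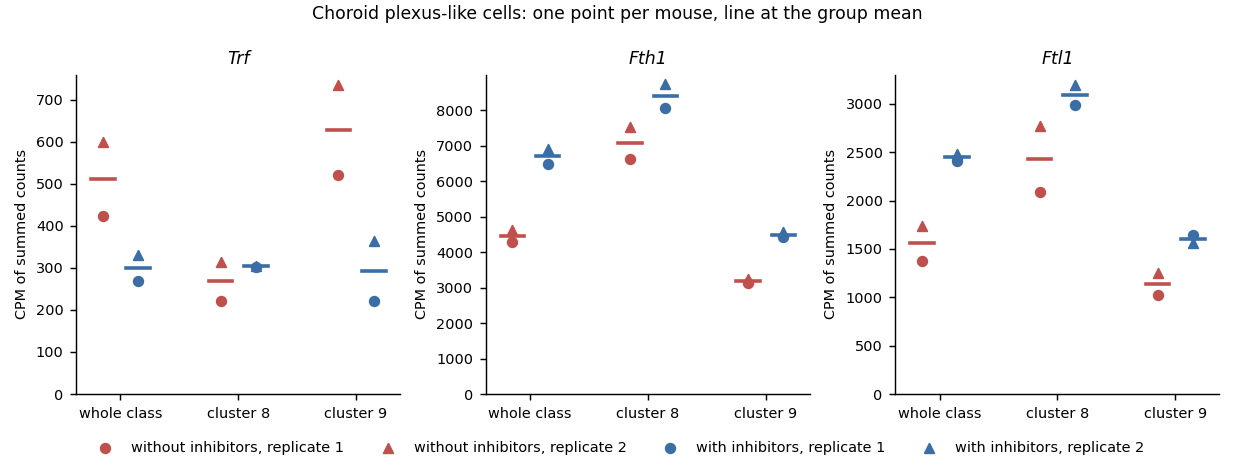
Levels in CPM of Trf, Fth1 and Ftl1 in the choroid plexus-like class and in its clusters 8 and 9, with 1 point per mouse and a line at the mean of each group of 2. Trf without inhibitors lies above the values with inhibitors in the class and in cluster 9, at 521 and 735 against 222 and 365 CPM, and overlaps with them in cluster 8.

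Whether an effect differed from that in microglia-like cells was tested as an interaction with the mouse as a block. Of 56 such tests of members, 1 was called by edgeR, that of Trf in choroid plexus-like cells, where 0.752% of all genes were called. The effect in microglia-like cells was lower by 0.80 on the log2 scale (value -0.80, SE 0.18, adjusted p 0.00529). It lost the call when replicate 1 or 2 without inhibitors or replicate 1 with inhibitors was left out, with differences of -0.82, -0.77 and -0.56 (adjusted p 0.103, 0.127 and 0.597), and was -0.98 (adjusted p 0.00306) without replicate 2 with inhibitors. In the other classes 0 members were called, against 0.17% of all genes for astrocyte-like, 0.242% for oligodendrocyte-like, 0.182% for mural-like, 0.0602% for neuron-like, 0.0699% for ependymal-like and 0.0127% for macrophage/monocyte-like cells. For Fth1, the difference between microglia-like and endothelial-like cells was -0.38 (SE 0.11, adjusted p 0.0946, 0.348% of all genes called), and it was called, at -0.60, when replicate 1 without inhibitors was left out (adjusted p 1.99e-10).

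The wider iron pathway was followed with 6 lists that together hold 63 genes, 61 of them in the files: uptake, export and reduction, sensing, mitochondrial iron, haem synthesis, haem transport and breakdown, and oxidative stress targets. In all cells 0 of 50 tested genes were called by edgeR, with 5 at an unadjusted p under 0.05, and DESeq2 called 3, against 0.276% of all genes. In the single classes, calls were made only in choroid plexus-like cells, where 3 of 28 tested genes were higher and 0 lower without inhibitors, against 4.06% of all genes called higher. The median log2 fold change of those 28 was 0.03, against -0.02 over all genes tested in the class. All 3 were among the 3 tested of the list of uptake, export and reduction.

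Steap1, of a family of membrane metalloreductases, had 160.2 and 141 CPM without and 77.7 and 70.6 CPM with inhibitors (log2 fold change 1.18). Steap2, of the same family and known to reduce iron and copper, had 149.6 and 222 CPM without and 118 and 83.8 CPM with inhibitors (1.005). Slc22a17, a receptor for the iron-binding protein lipocalin 2, had 643 and 629 CPM without and 351 and 357 CPM with inhibitors (1.02). In none of the 3 did the groups overlap. In cluster 9 alone none of the 3 was called, with log2 fold changes of 0.79 for Steap1, 0.46 for Steap2 and 0.57 for Slc22a17 (edgeR adjusted p 0.197, 0.402 and 0.0424), the last just short of the fold limit. In cluster 8 alone Steap1 had 0.62 and Slc22a17 0.08 (adjusted p 0.527 and 0.938), and Steap2 was too low to be tested. The other 5 pathway lists had 0 called genes in every class. At Leiden resolution 0.5, 35 choroid plexus-like cells formed a cluster of their own, led by Slc4a5 and Steap2. These cells had a median of 12196 UMIs, with 11 and 18 cells without and 3 and 3 with inhibitors. Their part in the results on choroid plexus-like cells was not tested.

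Haemoglobin chains, which mark red cells and their free RNA, were higher in both mice without inhibitors than in both with them in 8 of the 9 tested classes. The exception was mural-like cells, with 41565 and 1475 CPM without and 6143 and 6478 CPM with inhibitors. Their sums were 509 and 763 CPM without and 148 and 265 CPM with inhibitors in microglia-like cells, and 302 and 562 against 93.5 and 162 CPM in oligodendrocyte-like cells. In choroid plexus-like cells they were 369 and 525 CPM without and 158 and 260.3 CPM with inhibitors. Of the 4 chains, 3 were called higher without inhibitors in microglia-like cells, 2 in oligodendrocyte-like and 1 each in endothelial-like and choroid plexus-like cells. Their part in the results on the 8 members was not tested.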

How the data were processed

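Single-cell libraries of 4 mice (2 per group) were made with 10x Genomics 3′ version 2 chemistry. The authors deposited raw UMI counts per gene and barcode, made per the labels with Cell Ranger 3.0.0 on mm10 and not normalized. Barcodes with at least 400 genes and at most 20% mitochondrial UMIs were kept (10067 of 12487), and 256 were removed as doublets, scored against simulated ones. Cells were clustered by Leiden at resolution 1 (leidenalg 0.10.2) without 86 member, pathway and activation genes. Of the pathway lists, that of oxidative stress targets was not left out of the clustering. A cluster name needed at least 3 markers, and classes with at least 20 cells in every mouse were tested (9 of 15). Counts were summed per mouse and class and tested with edgeR 4.0.16 (filterByExpr, TMM, robust quasi-likelihood) in R 4.3.3, p-values being adjusted over all genes. The scripts were tested on simulated data. Depth per class limits which members could be tested. All 8 members were looked for in every comparison and tested where they passed the low-count filter, but not every tested member is named. In the comparison of the groups, pathway genes were named only if called in a fit. The pathway genes whose levels are described with no test were not chosen by a call or by a fixed rule. For likeness the 3 closest genes per member were found. The labels do not say whether mice shared a litter or day. The members and lists were chosen with earlier results of these data known. Alternatives were DESeq2 1.42.0, other scaling, filters, clustering, a replicate block and each mouse left out. Sequences and coordinates were read from the GENCODE annotation on mm10.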

Additional observations from a re-analysis of the deposited data

Results flagged for a closer look

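The effect of the inhibitors on Trf differed between microglia-like and choroid plexus-like cells, with a difference of log2 fold changes of -0.80 (SE 0.18, adjusted p 0.00529 by edgeR's interaction test). The call was lost in 3 of the 4 fits that leave out 1 mouse, where the difference ran from -0.82 to -0.56. Trf was higher in both mice without inhibitors than in both with inhibitors in choroid plexus-like cells (423 and 599 against 268 and 331 CPM), and overlapped between groups in microglia-like cells (548 and 638 against 565 and 499 CPM).

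Within choroid plexus-like cells the effect on Trf differed between cluster 9 and cluster 8 by 1.41 on the log2 scale (SE 0.27, adjusted p 0.0208 in the same kind of test). The clusters were compared after the data had been seen.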

How the results depend on the processing

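Of 263 fold changes of members recomputed under the alternatives, 249 kept their direction and side of the threshold and 14 reversed, in 9 of 23 results, none of them called in its comparison except Trf of choroid plexus-like cells, which was -0.10 in cluster 8 alone. Trf of these cells kept its call in every alternative other than that cluster, from 0.79 to 1.24. Ftl1 of macrophage/monocyte-like cells reversed to 0.0231 with no low-count filter and 0.0653 at Leiden resolution 0.5, and Cp of mural-like cells to 0.25 without cluster 13. With each mouse left out, log2 fold changes ran from -0.51 to 0.22 for Cp, -0.53 to 0.23 for Tfrc, -0.0651 to 0.39 for Trf and -0.0640 to 0.22 for Hmox1 in all cells, from -0.40 to 0.11 for Cp in mural-like, -0.48 to 0.13 for Ftl1 in macrophage/monocyte-like, -0.29 to 0.71 for Hmox1 in microglia-like and -0.35 to 0.0209 for Tfrc in endothelial-like cells. Pathway genes called in all cells rose from 0 to 3 with DESeq2, 4 with no low-count filter and 1 (Alas2) with the replicate block. Calls over all genes rose as well, from 2 of 13755 to 38 of 13755, 157 of 19953 and 16 of 13755. With 1 mouse left out, pathway gene calls also changed in sums over all cells and in endothelial-like and mural-like cells. Interaction calls of members then changed for endothelial-like and choroid plexus-like cells. Each of these fits keeps 1 mouse in 1 group. In ependymal-like cells 1 pathway gene, Slc7a11, was called with no low-count filter, where 2 of 14544 genes were called. In cluster 8 alone 0 members and 0 pathway genes were called, and in cluster 9 alone 0 pathway genes. Causes were not tested. Deviations of mice of the same replicate number from their group means did not correlate in sums over all cells (r = 0.015), although cell make-up shared features by number, and the labels do not say what a number marks. The mice were therefore not treated as pairs, and the replicate block changed no call of a member. In neuron-like cells, where r was -0.22, crossed pairing gave 1 called gene and 0 members. The leading class of each member held under every alternative except that of Cp as a mean over cells. Hmox1 passed the low-count filter in 1 single class, microglia-like cells.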

Other observations

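Genes of the wider pathway had levels of their own in the classes described, given here with no test. Slc48a1, which moves haem out of lysosomes, had 847 ± 60.3 CPM in oligodendrocyte-like cells and 169 ± 10.3 CPM in astrocyte-like cells, the next class (SD, n = 4). Cpox, an enzyme of haem synthesis, had 527 ± 94.2 CPM in oligodendrocyte-like cells and 283 ± 131 CPM in oligodendrocyte precursor-like cells.

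Alas1, the first enzyme of haem synthesis, had 333 ± 30.7 CPM in endothelial-like and 176 ± 44.9 CPM in mural-like cells. Blvrb, a biliverdin reductase, had 312 ± 53.9 CPM in macrophage/monocyte-like and 71.0 ± 6.25 CPM in microglia-like cells. Hmox2, the constitutive haem oxygenase, had 178 ± 31.6 CPM in oligodendrocyte-like and 134 ± 12.6 CPM in microglia-like cells, and the ranges over mice overlapped.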
